A study of Danio rerio with 4 samples.

Results

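The 9148 genes described here were the Ensembl genes with at least 5 FPKM (fragments scaled by transcript length and library size, a unit read from the values) in the control testis library, 26.1% of the 35066 Ensembl genes in the files. They were selected on the control value and are compared between the library of fish exposed to dibutyl phthalate (DBP) and diisobutyl phthalate (DiBP) together and the library of control fish. Both are plasticizers with the same composition, and their butyl groups are straight in DBP but branched in DiBP. The libraries were 1 for DBP+DiBP, 1 for DBP, 1 for DiBP and 1 for control, and DBP and DiBP alone are given beside the pair as values. Every library came from testis of wild-type AB zebrafish aged 5 months, and the exposures lasted 30 days. The sample labels give the sex as male and the design text of the series gives it as female. No dose, vehicle or pooling of fish is stated. With 1 library per group there was no replicate check and no test, so every difference below describes these libraries. The control value sets membership, which by itself favours lower values in any other library, so no difference from control supports more than a description.

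As background, zebrafish germ cells develop in cysts enclosed by Sertoli cells, from spermatogonia through meiotic spermatocytes to spermatids that build the flagellum. Leydig cells between the tubules make androgens, chiefly 11-ketotestosterone in fish, and secrete the peptide hormone encoded by insl3. In fetal rats, dibutyl phthalate is known to lower testicular testosterone and Insl3 expression.

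The DBP+DiBP library had 604 of the 9148 genes at least 2-fold lower than control and 433 at least 2-fold higher, on the scale log2(FPKM + 1). These are 6.6% and 4.73% of the genes, the shares beside which the counts of each gene list below are to be read. Over the 17093 Ensembl genes that averaged at least 1 FPKM in the 4 libraries, with no minimum in control, the shares were 4.83% lower and 9.48% higher. That mean includes the DBP+DiBP library, so genes high only there can enter. The order of the directions differed between these sets of genes, and the part of the minimum in control was not tested. With a minimum of 1 FPKM in control, 882 of 16361 genes were lower and 1059 higher. Under a minimum of 5 FPKM in both DBP and DiBP, 455 of 8712 genes were lower and 422 higher. Scaling the libraries by the median of ratios moved the median difference of the 9148 genes up by 0.17. Then 377 genes (4.12%) were lower and 551 (6.02%) higher, the shares beside which list counts after that scaling are to be read. Lower genes made up 58.2% of the calls as deposited and 40.6% after that scaling.

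Most of the genes moved little. The median difference was -0.26 on the log2 scale, with quartiles of -0.58 and 0.10, and 6071 genes (66.4%) lay within 1.5-fold of control. The tails were uneven, since 53 genes were 4-fold lower and 124 were 4-fold higher, and 11 were 8-fold lower and 42 were 8-fold higher. The 604 lower genes had a median of 6.53 FPKM in DBP+DiBP, 13.85 in DBP, 14.03 in DiBP and 19.6 in control. The 433 higher genes had a median of 45.5 FPKM in DBP+DiBP, 12.0 in DBP, 11.6 in DiBP and 11.3 in control. By these medians the single exposures lay near control for the higher genes and between DBP+DiBP and control for the lower genes, although single genes departed from this. Of the summed FPKM of a library, the higher genes took 9.63% in DBP+DiBP, 2.13% in DBP, 2.12% in DiBP and 2.05% in control. The lower and higher genes were chosen by their DBP+DiBP and control values, which shapes these medians and shares.

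**Figure D1:**
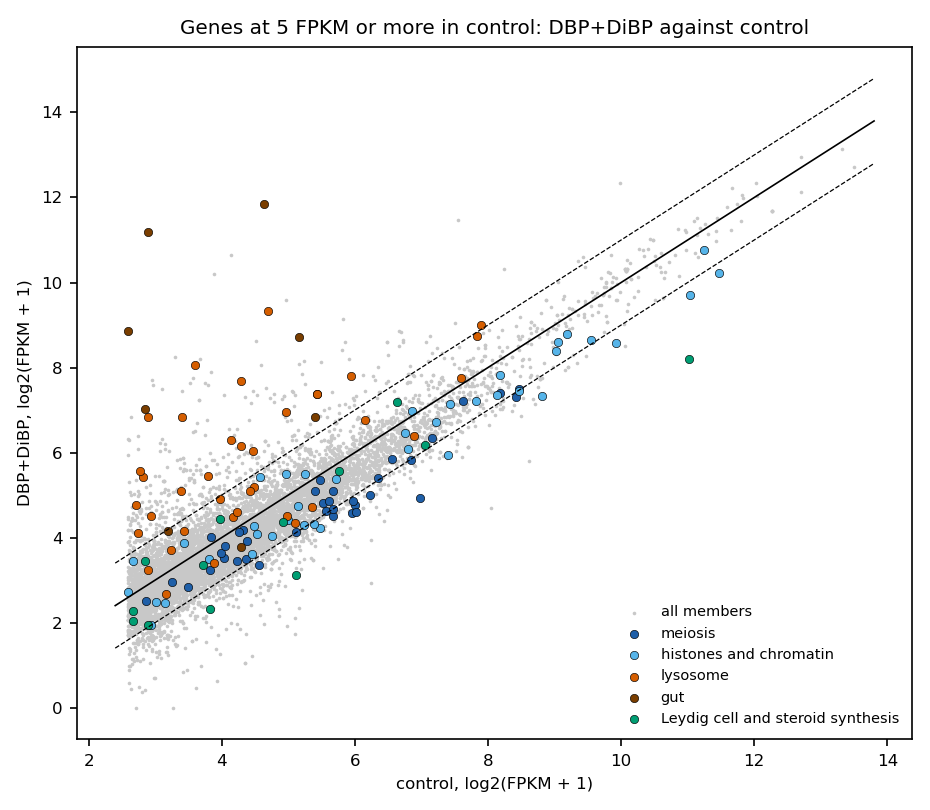
Expression of the 9148 genes in DBP+DiBP (y axis) against control (x axis), both as log2(FPKM + 1), with 1 point per gene, coloured points for 5 gene lists, a solid line of equality and dashed lines at 2-fold. Gut and lysosome genes lie above the upper dashed line in many cases, while meiosis and chromatin genes mostly lie below equality and insl3 is the farthest Leydig gene below the lower line.

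The genes were also split by the control value, which chose them and is the baseline of each difference, so the bands are a description. Among the 2964 genes at 5 to 10 FPKM in control, 5.7% were lower and 6.51% higher, with a median difference of -0.19. Among the 572 genes at 100 to 500 FPKM, 11.7% were lower and 3.15% higher, with a median of -0.36. The 163 genes at 500 FPKM or more had a median of -0.05, with 6.75% lower and 1.84% higher. Lower calls outnumbered higher ones in every band but the lowest.

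**Figure D2:**
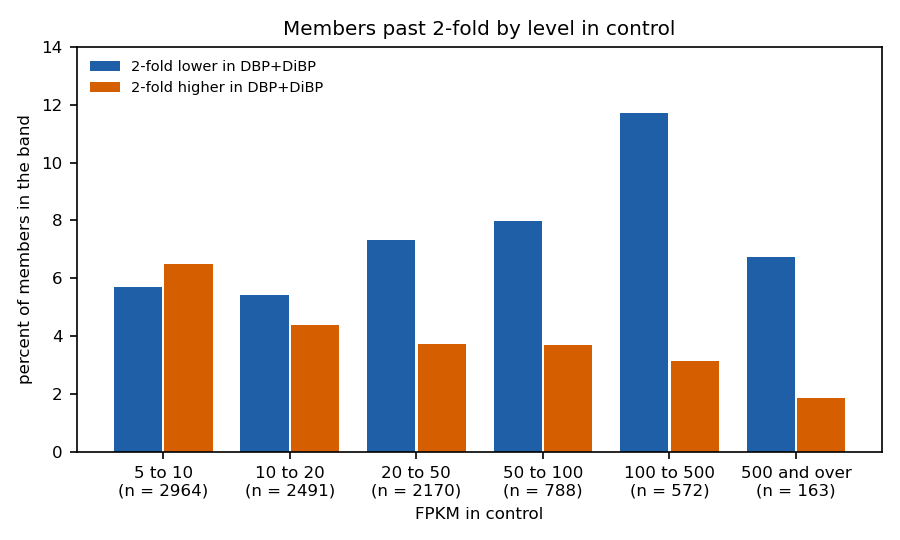
Percent of genes at least 2-fold lower (left bar of each pair) and at least 2-fold higher (right bar) in DBP+DiBP than in control, by band of FPKM in control, with the number of genes under each band. The lower share is largest at 100 to 500 FPKM (11.7%), and the higher share is largest at 5 to 10 FPKM (6.51%) and smallest at 500 FPKM or more (1.84%).

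Marker genes were used to check what the libraries held. Testis markers were present in both libraries, and the 5 oocyte markers summed to 5.24 FPKM in DBP+DiBP and 10.3 in control. Markers of several other cell types stood higher in the joint library, though not those of skeletal muscle, whose 8 markers summed to 22.9 FPKM in DBP+DiBP and 23.4 in control (1 higher, 1 lower). The 10 gut marker genes summed to 3508 FPKM in DBP+DiBP, 70.14 in DBP, 17.7 in DiBP and 50.2 in control, with 8 of the 10 at least 2-fold higher than control. The 6 liver markers summed to 345 FPKM in DBP+DiBP and 48.3 in control (6 of 6 higher), and the 7 exocrine pancreas markers to 285 FPKM in DBP+DiBP and 112 in control (6 of 7 higher). The 5 macrophage and neutrophil markers summed to 276 FPKM in DBP+DiBP and 49.0 in control (3 of 5 higher). The 7 smooth muscle and stroma markers summed to 1515 FPKM in DBP+DiBP and 391 in control (5 of 7 higher), and the 4 red blood cell markers to 164 FPKM in DBP+DiBP and 32.2 in control (1 of 4 higher). The globin gene hbaa1 alone held 154 of these 164 FPKM. None of these markers was at 0 in either library. Their part in the results that follow was not tested. In bulk tissue, fewer cells of a type and less RNA per cell cannot be told apart.

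Leydig cell genes were lower in part. The hormone gene insl3 had 293 FPKM in DBP+DiBP, 2455 in DBP, 1044 in DiBP and 2072 in control, a difference of -2.82 from control, the largest of the 13 Leydig and steroid synthesis genes in size. DBP+DiBP was the lowest library and DBP the highest. The ferredoxin fdx1b, which passes electrons to mitochondrial steroid hydroxylases, had 7.65 FPKM in DBP+DiBP, 23.3 in DBP, 12.3 in DiBP and 33.6 in control. CYP17A1, the hydroxylase and lyase that leads to androgens, had 4.03 FPKM in DBP+DiBP, 15.4 in DBP, 9.74 in DiBP and 13.1 in control. These 3 genes, of the 13, were at least 2-fold lower (-2.001 for fdx1b and -1.49 for CYP17A1) and none was higher. Of the 13 genes 10 lay below control and 3 above it, by up to 0.61. The median was -0.55 against -0.26 for all 9148 genes. STAR, which carries cholesterol into mitochondria, had 71.5 FPKM in DBP+DiBP, 159 in DBP, 64.6 in DiBP and 132 in control, so that DBP+DiBP and DiBP were both under DBP and control. The 11β-hydroxylase gene cyp11c1, on the path to 11-ketotestosterone, had 46.4 FPKM in DBP+DiBP, 105 in DBP, 37.3 in DiBP and 53.3 in control, with DBP as the high library. The luteinizing hormone receptor gene lhcgr was under 1 FPKM in each library (0.0666 FPKM in DBP+DiBP, 0.203 in DBP, 0.153 in DiBP and 0.184 in control) and outside the 9148. The 5 Leydig markers summed to 423 FPKM in DBP+DiBP, 2746 in DBP, 1161 in DiBP and 2275 in control, a sum that insl3 dominates. The marker hsd3b1, under the minimum in control, went the other way. It had 7.69 FPKM in DBP+DiBP, 11.2 in DBP, 5.63 in DiBP and 4.81 in control, a difference of 0.58.

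Sertoli cell genes split in direction. Of 11 genes 3 were lower and 2 higher, with a median of -0.57. The TGF-beta family hormone gene amh, which holds back spermatogonial differentiation in zebrafish, had 31.3 FPKM in DBP+DiBP, 52.6 in DBP, 42.7 in DiBP and 79.1 in control, lowest in the joint library and highest in control. The activin subunit gene INHBA had 0.984 FPKM in DBP+DiBP, 1.32 in DBP, 1.77 in DiBP and 5.18 in control, and the keratin gene krt18a.1 had 154 FPKM in DBP+DiBP, 65.6 in DBP, 101 in DiBP and 409 in control. Both were at least 2-fold lower than control in all 3 exposed libraries. In contrast gsdf, a fish gonadal growth factor gene of Sertoli cells, had 339.6 FPKM in DBP+DiBP, 94.95 in DBP, 89.9 in DiBP and 54.96 in control. The retinoic acid hydroxylase gene CYP26A1, which limits the signal that starts meiosis in vertebrates, had 42.7 FPKM in DBP+DiBP, 24.3 in DBP, 26.2 in DiBP and 6.17 in control. Both lay above control in every exposed library and highest in DBP+DiBP, by 2.61 for gsdf and 2.61 for CYP26A1. The transcription factor gene DMRT1, a male sex factor, had 54.4 FPKM in DBP+DiBP, 112 in DBP, 106 in DiBP and 105 in control, under 2-fold at -0.94. The subunit gene inha had 9.21 FPKM in DBP+DiBP, 6.77 in DBP, 6.42 in DiBP and 4.33 in control and was outside the 9148 by its control value, as were FSHR, the follicle-stimulating hormone receptor gene, at 0.668 FPKM in DBP+DiBP, 0.213 in DBP, 0.0652 in DiBP and 0.0465 in control. The 2 genes with the symbol SOX9 were each under 2 FPKM in all 4 libraries. The 7 Sertoli markers summed to 438 FPKM in DBP+DiBP and 244 in control, and gsdf alone held most of that sum in the joint library.

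Genes of spermatogonia and the germ plasm were lower together. The 16 genes lay below control without exception (5 at least 2-fold lower, 0 higher, median -0.61), beside 68.8% of all 9148 genes below control. In 13 of the 16 DBP+DiBP was the lowest of the 4 libraries, beside 52.4% of all the genes. PIWIL1, a Piwi protein that silences transposons with small RNAs, had 64.4 FPKM in DBP+DiBP, 154 in DBP, 114 in DiBP and 183 in control. The helicase gene ddx43 had 23.7 FPKM in DBP+DiBP, 86.6 in DBP, 69.2 in DiBP and 58.96 in control, and DAZL, an RNA-binding protein of germ cells, had 77.6 FPKM in DBP+DiBP, 199 in DBP, 177 in DiBP and 184 in control. In these 3 the joint library was lower than all of the others. ASZ1, a germ granule protein gene, had 26.9 FPKM in DBP+DiBP, 62.8 in DBP, 48.1 in DiBP and 60.1 in control, and DDX4 (vasa), the classic germ cell helicase, had 167 FPKM in DBP+DiBP, 251 in DBP, 262 in DiBP and 352 in control. After the median of ratios scaling 3 of the 16 stayed past 2-fold, and ASZ1 and DDX4 did not.

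Meiosis genes had the lowest median of the lists with 10 or more genes (-0.78). Of 37 genes 36 lay below control, 11 were at least 2-fold lower and 0 higher, and in 35 the joint library was the lowest of 4, beside the same 68.8% below control and 52.4% lowest over all the genes. DMC1, the recombinase of meiotic strand exchange, had 29.4 FPKM in DBP+DiBP, 143 in DBP, 103 in DiBP and 125 in control, a difference of -2.05. MND1, which helps load DMC1, had 23.1 FPKM in DBP+DiBP, 54.5 in DBP, 64.1 in DiBP and 60.9 in control. MAJIN, which ties telomeres to the nuclear envelope in mouse meiosis, had 23.2 FPKM in DBP+DiBP, 69.02 in DBP, 53.4 in DiBP and 63.7 in control. In each of these 3 genes the single exposures and control lay within 1.5-fold of each other and DBP+DiBP lay apart. CCNB1IP1, a crossover factor in mouse, had 30.97 FPKM in DBP+DiBP, 60.3 in DBP, 60.5 in DiBP and 74.2 in control. The synaptonemal complex gene SYCP3 had 156 FPKM in DBP+DiBP, 518 in DBP, 532 in DiBP and 342 in control, so that it was highest in DiBP and DBP, and its difference from control was -1.13. With the median of ratios scaling 6 of the 37 remained at least 2-fold lower, and SYCP3 was not among them. The 7 spermatocyte markers summed to 576 FPKM in DBP+DiBP, 1548 in DBP, 1328 in DiBP and 1119 in control, and the 5 spermatogonial markers to 402 FPKM in DBP+DiBP, 749 in DBP, 653 in DiBP and 860 in control.

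Spermatid genes did not share that shift from control. Of 89 genes of spermatids and the flagellum 1 was lower and 1 higher, and the median of -0.26 matched that of all 9148 genes. The tektin gene TEKT3, a microtubule doublet protein, had 1.55 FPKM in DBP+DiBP, 2.82 in DBP, 2.49 in DiBP and 6.25 in control. The outer arm dynein gene dnah9 had 14.7 FPKM in DBP+DiBP, 21.4 in DBP, 21.4 in DiBP and 6.83 in control, lower in DBP+DiBP than in the single exposures and higher than in control, by 1.001, a call that ended with equal library totals. Of 33 genes of intraflagellar transport and the centriole none passed 2-fold (median -0.34). The 9 spermatid markers summed to 630 FPKM in DBP+DiBP, 1125 in DBP, 1004 in DiBP and 679 in control, so the 2 single exposures stood above both. The meiotic cyclin gene CCNA1 had 16.5 FPKM in DBP+DiBP, 33.5 in DBP, 32.6 in DiBP and 18.1 in control, the same pattern.

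Chromatin and DNA damage lists held more lower than higher genes. Of 39 histone and chromatin genes 8 were lower and 0 higher (median -0.53). They included the high mobility group genes hmgb1b (160.01 FPKM in DBP+DiBP, 421 in DBP, 386 in DiBP and 448 in control) and hmgb2b (384 FPKM in DBP+DiBP, 942 in DBP, 1181 in DiBP and 969 in control), whose proteins bend DNA. HMGN2, a nucleosome binding protein and 1 of the 10 named genes highest in control, had 1204 FPKM in DBP+DiBP, 2154 in DBP, 1781 in DiBP and 2835 in control. The linker histone gene H1-10 had 60.5 FPKM in DBP+DiBP, 111 in DBP, 109.8 in DiBP and 168 in control, and the variant histone gene h2ax1 had 833 FPKM in DBP+DiBP, 1019 in DBP, 768 in DiBP and 2099 in control. In h2ax1 DiBP was the lowest library, and both single exposures were at least 2-fold lower than control (-1.04 for DBP and -1.45 for DiBP). In hmgb1b, HMGN2 and H1-10 both single exposures were under control by less than 2-fold. Of 61 cell cycle and replication genes 4 were lower and 0 higher (median -0.42), a share near the 6.6% of all the genes, and CDK2, the kinase of the G1 to S step, had 72.8 FPKM in DBP+DiBP, 238 in DBP, 209 in DiBP and 185 in control. The others were CCNE2, RRM2 and ESCO2, at -1.21, -1.11 and -1.04. Of 45 genes of apoptosis and DNA damage 8 were lower and 1 higher (median -0.46). APEX1, the endonuclease of base excision repair, had 2.78 FPKM in DBP+DiBP, 30.7 in DBP, 5.34 in DiBP and 30.5 in control, low in both libraries that contained DiBP. PARP1, which senses strand breaks, had 14.2 FPKM in DBP+DiBP, 34.6 in DBP, 30.6 in DiBP and 36.3 in control. The growth arrest gene GADD45A was the exception, with 28.2 FPKM in DBP+DiBP, 3.28 in DBP, 5.83 in DiBP and 6.47 in control. After the median of ratios scaling the lower counts were 6 of 39 for chromatin, 2 of 61 for the cell cycle and 2 of 45 for apoptosis and DNA damage. Beside the 4.12% of all 9148 genes lower under that scaling, the cell cycle and the apoptosis and DNA damage counts were near the share of all the genes.

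RNA binding and splicing genes had 4 of 55 lower and 0 higher (median -0.40), a share near that of all the genes, as was the lower share of the proteasome list. RBM8A, a core protein of the exon junction complex, had 363 FPKM in DBP+DiBP, 981 in DBP, 821 in DiBP and 1067 in control, and the splicing regulator gene hnrnpa1a had 25.2 FPKM in DBP+DiBP, 47.5 in DBP, 72.9 in DiBP and 78.5 in control. The spliceosomal genes SNRPF and SNRPD1 lay at -1.15 and -1.02, just past 2-fold as deposited and short of it after the median of ratios scaling. Of 61 genes of the proteasome and ubiquitin system 4 were lower and 2 higher (median 0.01). The gene sumo2a, for a small ubiquitin-like modifier, had 3.29 FPKM in DBP+DiBP, 11.8 in DBP, 8.71 in DiBP and 12.14 in control, lowest in the joint library. PSME3, a proteasome activator gene, had 15.2 FPKM in DBP+DiBP, 25.6 in DBP, 21.7 in DiBP and 33.4 in control, and the proteasome subunit gene psma6l was higher with 52.4 FPKM in DBP+DiBP, 10.3 in DBP, 12.7 in DiBP and 14.2 in control. The median of ratios scaling left 2 genes of the list lower and 4 higher.

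**Figure D3:**
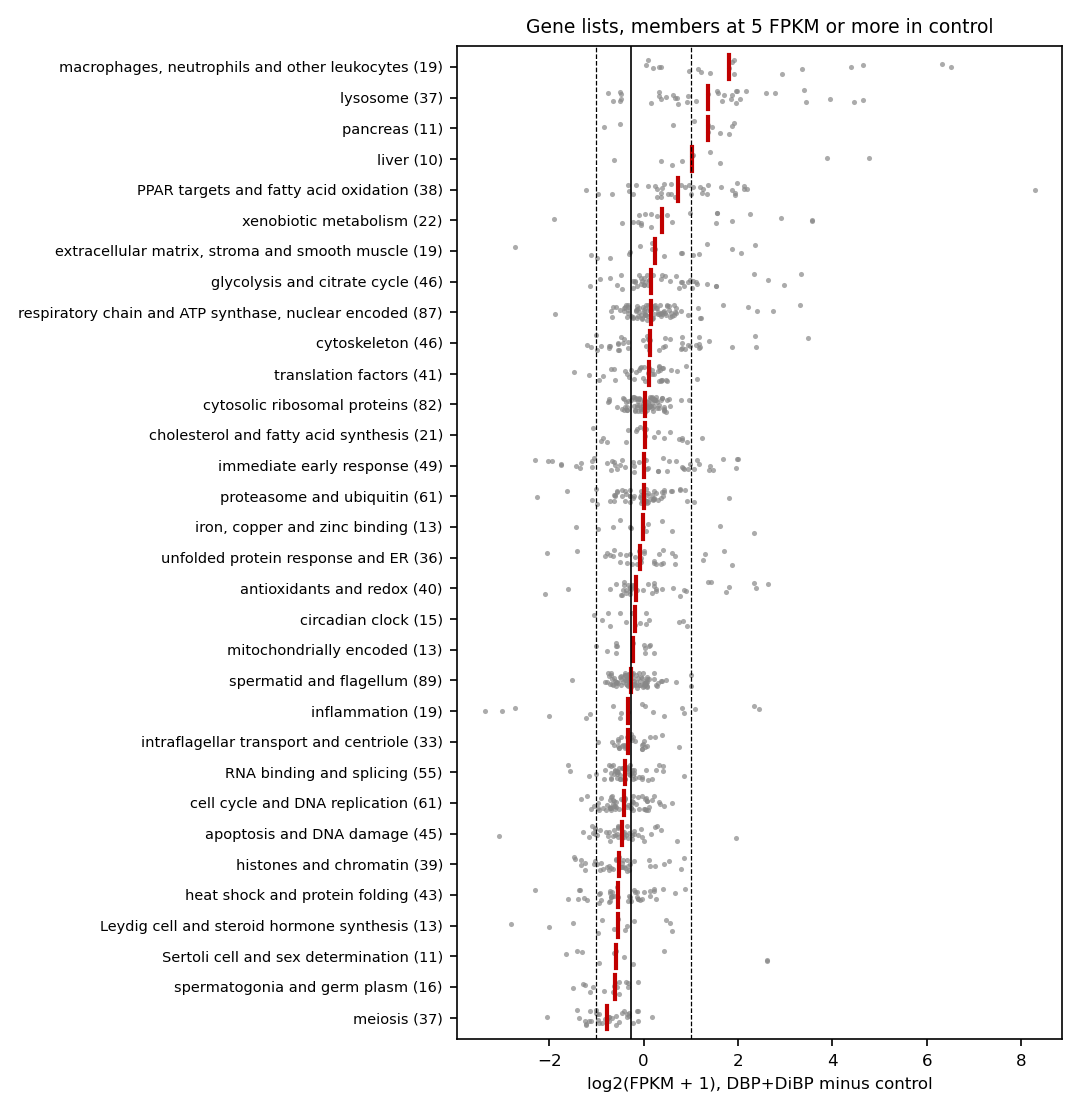
Differences in log2(FPKM + 1), DBP+DiBP minus control, of the genes in each list with 10 or more genes at 5 FPKM in control, 1 grey point per gene and a red bar at the list median, with the number of genes in parentheses. The solid line is the median of all 9148 genes (-0.26) and the dashed lines mark 2-fold, and the list medians run down the page between leukocytes at 1.82 and meiosis at -0.78.

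Stress genes did not move as 1 group. Of 49 immediate early genes, induced within minutes of a stimulus, 11 were lower and 10 higher, with a median of 0.02. Those lower included the transcription factor genes egr4 (0.612 FPKM in DBP+DiBP, 0.234 in DBP, 1.38 in DiBP and 6.97 in control) and FOSL1 (4.31 FPKM in DBP+DiBP, 1.44 in DBP, 6.59 in DiBP and 20.7 in control). Those higher included CEBPD, a factor of acute phase and fat cell programmes, with 135 FPKM in DBP+DiBP, 14.5 in DBP, 48.9 in DiBP and 32.9 in control. TXNIP, a thioredoxin inhibitor gene, was higher with 119.5 FPKM in DBP+DiBP, 49.5 in DBP, 35.6 in DiBP and 29.4 in control. CEBPB had 286 FPKM in DBP+DiBP, 14.1 in DBP, 131 in DiBP and 136 in control, and egr1 had 29.6 FPKM in DBP+DiBP, 4.09 in DBP, 24.4 in DiBP and 23.8 in control. For all of these but TXNIP, DBP was the lowest library, so their level in DBP+DiBP was not below both single exposures.

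Among 43 heat shock and folding genes 7 were lower and none was higher (median -0.54). HSPB1, a small heat shock protein, had 14.4 FPKM in DBP+DiBP, 6.13 in DBP, 34.98 in DiBP and 74.6 in control, and the HSP70 co-chaperone genes HSPA4, HSPH1 and BAG3 lay at -1.60, -1.38 and -1.36. HSPA4 had 12.95 FPKM in DBP+DiBP, 25.6 in DBP, 32.8 in DiBP and 41.4 in control, lowest in the joint library. The inducible hsp70l had 298 FPKM in DBP+DiBP, 12.99 in DBP, 2342 in DiBP and 161 in control, so that DiBP was far above the rest and DBP+DiBP lay between DiBP and control. HSPA5, the chaperone of the endoplasmic reticulum, had 178 FPKM in DBP+DiBP, 108 in DBP, 278 in DiBP and 293 in control. Of 36 genes of the unfolded protein response and endoplasmic reticulum 2 were lower and 4 higher, and the median of -0.07 became 0.11 after the median of ratios scaling. The lower genes were the response factors XBP1 (19.9 FPKM in DBP+DiBP, 33.4 in DBP, 50.9 in DiBP and 85.5 in control) and atf4b (57.1 FPKM in DBP+DiBP, 59.96 in DBP, 81.8 in DiBP and 153 in control). The higher genes were folding enzymes and lectins of the same compartment, led by P4HB, a protein disulfide isomerase, with 41.3 FPKM in DBP+DiBP, 9.68 in DBP, 10.9 in DiBP and 10.6 in control, and PDIA3, another, with 226 FPKM in DBP+DiBP, 44.3 in DBP, 52.3 in DiBP and 68.7 in control. These 2 factors were lower and these folding enzymes higher in the same library, but the chaperone HSPA5 was under control at -0.72. Of the 36 genes 20 lay below control and 16 above, so the list did not split as a whole.

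Among 19 inflammation genes 6 were lower and 3 higher (median -0.32). The median was 0.11 with a minimum of 1 FPKM in control and 0.20 with no minimum. The chemokine gene cxcl18b had 24.8 FPKM in DBP+DiBP, 7.86 in DBP, 85.1 in DiBP and 264 in control. PTGS2, the inducible prostaglandin synthase gene, had 3.29 FPKM in DBP+DiBP, 0.694 in DBP, 11.5 in DiBP and 33.3 in control. A gene with the symbol TIMP2, a metalloproteinase inhibitor, had 3.45 FPKM in DBP+DiBP, 0.722 in DBP, 10.5 in DiBP and 28.2 in control. In these 3 control was the highest library and DBP the lowest, with DBP+DiBP between DBP and DiBP. The chemokine gene ccl25b went the other way with 32.5 FPKM in DBP+DiBP, 7.89 in DBP, 5.76 in DiBP and 5.17 in control. Of 5 complement and coagulation genes, cfd, the serine protease of the alternative complement pathway, had 236 FPKM in DBP+DiBP, 14.3 in DBP, 8.27 in DiBP and 13.3 in control.

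Leukocyte and lysosome genes were higher together. Of 19 leukocyte genes 13 were at least 2-fold higher and 0 lower, beside 4.73% higher over all 9148 genes. Their median was 1.82 (0.35 with a minimum of 20 FPKM in control). In 18 the joint library was the highest of 4, beside 18.6% of all the genes. The granulin genes grna.1 and grna.2, secreted growth factors abundant in macrophages, had 1609 FPKM in DBP+DiBP, 17.1 in DBP, 36.5 in DiBP and 16.6 in control for grna.1 and 1170.3 FPKM in DBP+DiBP, 7.04 in DBP, 73.5 in DiBP and 13.7 in control for grna.2. The lysozyme gene lyz had 181 FPKM in DBP+DiBP, 6.82 in DBP, 5.89 in DiBP and 7.58 in control. Of 37 lysosome genes 20 were higher and 0 lower (median 1.37). The asparaginyl protease gene LGMN had 645 FPKM in DBP+DiBP, 27.7 in DBP, 27.9 in DiBP and 24.8 in control, and the cathepsin gene CTSH had 267 FPKM in DBP+DiBP, 10.6 in DBP, 9.89 in DiBP and 11.13 in control. In both the other 3 libraries lay near each other and DBP+DiBP far above them. The macrophage and neutrophil markers are not separate from these lists, since lyz held 181 of their 276 FPKM in DBP+DiBP. Of the 5 markers 3 were higher, and CORO1A and csf1ra differed by 0.09 and 0.19. LGMN belongs to both the leukocyte and the lysosome list.

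Gut genes reached the largest differences among the named genes, while liver genes went up to 4.77 and pancreas genes up to 1.93. FABP6, the ileal bile acid binding protein gene, had 2323 FPKM in DBP+DiBP, 10.8 in DBP, 0.430 in DiBP and 6.45 in control, a difference of 8.28, and the galectin gene lgals2b had 3666 FPKM in DBP+DiBP, 8.81 in DBP, 0.805 in DiBP and 23.9 in control. AGR2, a protein disulfide isomerase of mucus-secreting cells, had 129 FPKM in DBP+DiBP, 3.52 in DBP, 3.26 in DiBP and 6.23 in control. Of 8 gut genes at 5 FPKM in control 6 were higher and 0 lower. Of 10 liver genes 6 were higher, and apoa2, an apolipoprotein gene, had 209 FPKM in DBP+DiBP, 9.26 in DBP, 1.18 in DiBP and 6.71 in control. Of 11 pancreas genes 8 were higher. A carboxypeptidase gene with the symbol CPA1 had 32.4 FPKM in DBP+DiBP, 6.47 in DBP, 5.69 in DiBP and 7.79 in control. Another gene with that symbol, under the minimum, had 6.19 FPKM in DBP+DiBP and 2.15 in control. FABP6, apoa1a, AGR2 and apoa2 had 5.06 to 6.71 FPKM in control, just over the minimum. The gut, liver and pancreas markers given above are not separate from these lists. FABP6 held 2323 of the 3508 FPKM of the gut markers in DBP+DiBP. The genes apoa1a (gut), tfa and apoa1b (liver) and CPA1 and amy2a (pancreas) are also both markers and list genes.

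Smooth muscle and stroma were mixed. Of 19 genes 6 were higher and 2 lower (median 0.24). The smooth muscle actin gene acta2 had 152 FPKM in DBP+DiBP, 40.7 in DBP, 18.7 in DiBP and 29.1 in control, and 1 of 2 genes with the symbol TAGLN, an actin-bundling protein of smooth muscle, had 1269.6 FPKM in DBP+DiBP, 474 in DBP, 143 in DiBP and 302 in control. In both DBP+DiBP was the highest library and DiBP the lowest. This TAGLN gene held most of the 1515 FPKM of the smooth muscle and stroma markers in DBP+DiBP. The other TAGLN gene had 53.7 FPKM in DBP+DiBP, 15.5 in DBP, 21.4 in DiBP and 47.7 in control, a difference of 0.17. DCN, a collagen-binding proteoglycan, had 24.3 FPKM in DBP+DiBP, 8.96 in DBP, 5.98 in DiBP and 5.89 in control. Of 46 cytoskeleton genes 10 were higher and 3 lower (median 0.13), led by the thymosin gene tmsb1, an actin monomer binder, with 266 FPKM in DBP+DiBP, 26.2 in DBP, 19.5 in DiBP and 22.99 in control, and pfn1, a profilin gene, with 386 FPKM in DBP+DiBP, 82.1 in DBP, 95.7 in DiBP and 105 in control. The tubulin gene tuba8l2 had 159.5 FPKM in DBP+DiBP, 24.8 in DBP, 27.2 in DiBP and 29.7 in control. After the median of ratios scaling 14 cytoskeleton genes were higher and 1 lower. Of 4 vessel genes plvapa, a protein of fenestrated endothelium, was higher with 27.99 FPKM in DBP+DiBP, 6.24 in DBP, 3.10 in DiBP and 7.41 in control, and of 2 red blood cell genes the globin gene hbaa1 had 154 FPKM in DBP+DiBP, 37.3 in DBP, 12.2 in DiBP and 25.3 in control. The other red blood cell gene, cahz, had 8.75 FPKM in DBP+DiBP, 26.6 in DBP, 19.03 in DiBP and 12.9 in control, a difference of -0.51. Of 7 muscle genes ENO3 was higher (1.04) and pvalb4, a calcium-binding protein of fast muscle, lower with 2.34 FPKM in DBP+DiBP, 9.80 in DBP, 52.9 in DiBP and 19.5 in control.

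Of 87 nuclear genes of the respiratory chain and ATP synthase 8 were higher and 1 lower, while the list median was 0.15. The cytochrome oxidase genes ndufa4b (162 FPKM in DBP+DiBP, 17.3 in DBP, 15.3 in DiBP and 15.4 in control), cox6b1 (384 FPKM in DBP+DiBP, 50.8 in DBP, 41.1 in DiBP and 56.9 in control), COX6A1 (174 FPKM in DBP+DiBP, 43.6 in DBP, 42.04 in DiBP and 32.1 in control) and cox7a1 (39.6 FPKM in DBP+DiBP, 13.99 in DBP, 9.10 in DiBP and 7.72 in control) were among them. A further cytochrome oxidase gene by name, cox4i1l, was 1 of the 15 highest named genes, with 216 FPKM in DBP+DiBP, 16.03 in DBP, 18.2 in DiBP and 10.9 in control. The lower gene was 1 of 2 with the symbol SDHD, a membrane anchor of succinate dehydrogenase, with 4.15 FPKM in DBP+DiBP, 23.2 in DBP, 10.7 in DiBP and 17.9 in control. The 13 mitochondrially encoded genes had none past 2-fold (median -0.22): MT-CO2, the highest named gene in control, had 6761 FPKM in DBP+DiBP, 5926 in DBP, 4665 in DiBP and 11610.4 in control, and MT-CO1 had 4504 FPKM in DBP+DiBP, 4195 in DBP, 3957 in DiBP and 6693 in control. The mitochondrial median was near the -0.26 of all 9148 genes, and the nuclear genes named here were chosen for their large differences.

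Of 46 genes of glycolysis and the citrate cycle 11 were higher and 1 lower (median 0.16). The pyruvate kinase gene PKLR, the form of liver and red blood cells, had 173 FPKM in DBP+DiBP, 15.99 in DBP, 15.9 in DiBP and 21.1 in control. GAPDH had 228 FPKM in DBP+DiBP, 54.6 in DBP, 40.3 in DiBP and 36.05 in control, and the succinyl-CoA ligase gene SUCLG2 had 32.98 FPKM in DBP+DiBP, 4.99 in DBP, 6.12 in DiBP and 5.70 in control. GAPDH is often used to normalize expression, and here it differed from control by 2.63, whereas the actin gene actb1 differed by 0.14 with 958 FPKM in DBP+DiBP, 347 in DBP, 542 in DiBP and 871 in control. Of 38 genes of PPAR targets and fatty acid oxidation 16 were higher and 1 lower (median 0.73). HADH, of mitochondrial beta oxidation, had 48.3 FPKM in DBP+DiBP, 9.32 in DBP, 8.08 in DiBP and 9.78 in control, and the fatty acid carrier gene fabp4a had 403 FPKM in DBP+DiBP, 164 in DBP, 37.5 in DiBP and 104 in control. Of the PPAR receptor genes only PPARD is given here, and 2 genes with that symbol lay at -0.93 and -0.79. The 9 nuclear receptor genes at 5 FPKM in control had none past 2-fold. The 33 that averaged at least 1 FPKM in the 4 libraries had a median of 0.15. Of 21 genes of cholesterol and fatty acid synthesis 1 was higher, STARD4, a cholesterol carrier gene, with 18.6 FPKM in DBP+DiBP, 6.75 in DBP, 6.43 in DiBP and 7.31 in control. FASN, the fatty acid synthase gene, was lower with 3.70 FPKM in DBP+DiBP, 11.14 in DBP, 9.03 in DiBP and 8.83 in control, a call lost under the median of ratios scaling. The counts of this synthesis list were near the shares of all the genes.

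Of 22 genes of xenobiotic metabolism 8 were higher and 1 lower (median 0.39). The median became 1.53 with a minimum of 20 FPKM in control. The microsomal glutathione transferase genes mgst3b and MGST3 had 283 FPKM in DBP+DiBP, 29.02 in DBP, 26.3 in DiBP and 36.6 in control for mgst3b and 162 FPKM in DBP+DiBP, 16.7 in DBP, 21.3 in DiBP and 33.2 in control for MGST3, and gsto1 had 58.9 FPKM in DBP+DiBP, 9.93 in DBP, 11.3 in DiBP and 15.3 in control. The theta class transferase gene gstt1a went the other way, with 6.82 FPKM in DBP+DiBP, 10.96 in DBP, 10.2 in DiBP and 27.9 in control. Of 40 antioxidant genes 7 were higher and 2 lower (median -0.16, and 0.01 after the median of ratios scaling). The ferritin heavy chain gene fth1a, which stores iron, had 5150.1 FPKM in DBP+DiBP, 1111 in DBP, 1092 in DiBP and 1014 in control. The peroxidase gene prdx6 had 281 FPKM in DBP+DiBP, 71.2 in DBP, 45.9 in DiBP and 43.99 in control, and the selenium carrier gene selenop had 159 FPKM in DBP+DiBP, 58.9 in DBP, 32.6 in DiBP and 29.6 in control. GPX8, a peroxidase of the endoplasmic reticulum, was lower with 6.24 FPKM in DBP+DiBP, 38.4 in DBP, 21.2 in DiBP and 30.01 in control. In fth1a the other 3 libraries lay close together and the joint library stood apart. Of 13 genes of iron, copper and zinc binding 2 were higher, fth1a and the transferrin gene tfa, and the transferrin receptor gene tfr1b was lower. The gut, liver and leukocyte markers given above moved in the same direction as these higher metabolic genes, and their part was not tested.

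Ribosomal protein genes stayed near control. None of 82 passed 2-fold, with a median of 0.03, and RPS15 had 4222 FPKM in DBP+DiBP, 3245 in DBP, 2543 in DiBP and 4204 in control. RPL26, of the large subunit, had 3665 FPKM in DBP+DiBP, 2361 in DBP, 2421 in DiBP and 3436 in control. In both the joint library and control lay above the single exposures. Of 41 translation factor genes 2 were lower and 1 higher (median 0.11). EIF4G2 had 4.005 FPKM in DBP+DiBP, 8.91 in DBP, 12.3 in DiBP and 12.8 in control. EIF4EBP3, a repressor of cap-dependent translation, had 41.1 FPKM in DBP+DiBP, 20.8 in DBP, 14.003 in DiBP and 18.1 in control. The elongation factor gene eef1a1l1 had 2788 FPKM in DBP+DiBP, 1360.2 in DBP, 1632 in DiBP and 2179 in control. Of 15 circadian clock genes the repressor ciarta was the 1 lower (-1.06) and none was higher. The clock and translation factor counts were near the shares of all the genes. Of 7 ovary and oocyte genes 4 were lower and none was higher, and FST, an activin antagonist, had 1.48 FPKM in DBP+DiBP, 6.02 in DBP, 8.02 in DiBP and 7.98 in control. The oocyte genes ZAR1, ZAR1L and org, which were the other 3, were not past 2-fold after the median of ratios scaling.

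Some of the 15 lowest and 15 highest named genes belong to none of the groups above. The nucleotidase gene nt5c2a was lowest with 2.31 FPKM in DBP+DiBP, 31.3 in DBP, 29.8 in DiBP and 33.2 in control, so the joint library alone departed from the other 3. TOP1, the DNA topoisomerase gene, had 2.89 FPKM in DBP+DiBP, 18.5 in DBP, 10.8 in DiBP and 23.9 in control. FAM167B had 1.33 FPKM in DBP+DiBP, 4.93 in DBP, 8.58 in DiBP and 20.9 in control, and the transcription factor gene cebpg had 1.397 FPKM in DBP+DiBP, 9.52 in DBP, 1.99 in DiBP and 14.7 in control. The collagen gene col17a1a had 0.973 FPKM in DBP+DiBP, 1.48 in DBP, 12.4 in DiBP and 11.9 in control. GEMIN4, of the complex that assembles spliceosomal particles, was listed at 0 in DBP+DiBP, with 1.80 FPKM in DBP, 1.56 in DiBP and 8.59 in control. The signal recognition particle RNA gene rn7sl1 had 55.02 FPKM in DBP+DiBP, 74.6 in DBP, 69.6 in DiBP and 391 in control, the receptor gene tnfrsf9a had 0.372 FPKM in DBP+DiBP, 0.167 in DBP, 0.898 in DiBP and 11.3 in control and the cytokine receptor gene crlf1a had 4.11 FPKM in DBP+DiBP, 4.22 in DBP, 10.2 in DiBP and 34.8 in control. In rn7sl1 and tnfrsf9a, unlike nt5c2a, control stood apart and the 3 exposed libraries lay together. Among the highest, the keratin gene krt4 had 294 FPKM in DBP+DiBP, 18.6 in DBP, 8.62 in DiBP and 11.8 in control, the calcium-binding s100a10a had 304 FPKM in DBP+DiBP, 9.15 in DBP, 1.51 in DiBP and 8.86 in control, ifi30a, a lysosomal thiol reductase gene, had 767 FPKM in DBP+DiBP, 23.4 in DBP, 26.3 in DiBP and 30.1 in control, and the lysozyme-like gene lygl1 had 191 FPKM in DBP+DiBP, 9.62 in DBP, 12.96 in DiBP and 6.81 in control. In each of these 4 only DBP+DiBP stood high.

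**Figure D4:**
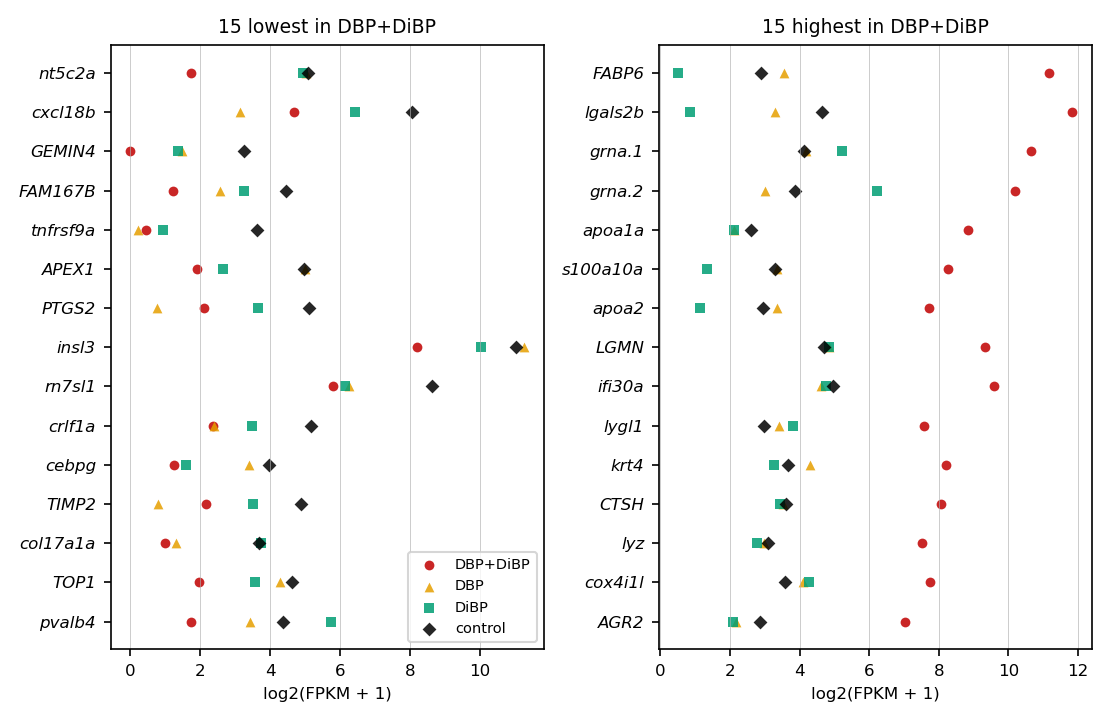
Values of log2(FPKM + 1) in the 4 libraries for the named genes with the 15 lowest (left panel) and 15 highest (right panel) differences between DBP+DiBP and control. Red circles are DBP+DiBP, orange triangles DBP, green squares DiBP and black diamonds control, and the red circles lie right of every other library for the 15 highest genes.

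A second baseline was the mean of log2(FPKM + 1) in DBP and DiBP, which the choice of genes did not use. It shares the DBP+DiBP library with the comparison above and so is not independent of it. Against it, 775 genes (8.47%) were at least 2-fold lower in DBP+DiBP and 593 (6.48%) higher, with a median of -0.28. The joint library was the lowest of 4 for 4791 genes (52.4%) and the highest for 1699 (18.6%). Meiosis genes had 20 of 37 lower on this baseline, with a median of -1.04, and spermatid genes 18 of 89 (median -0.78), whereas against control 1 of the 89 was lower. DMC1 differed by -2.01 and insl3 by -2.44 from the mean of the single exposures. Immediate early genes had 21 of 49 higher and 0 lower (median 0.76), against 10 higher and 11 lower relative to control. Ribosomal protein and mitochondrially encoded genes had medians of 0.60 and 0.65. Lysosome genes (median 1.22), leukocyte genes (2.01) and gut genes (4.48) lay above both baselines, and Sertoli genes lay at 0.24 here and at -0.57 against control.

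**Figure D5:**
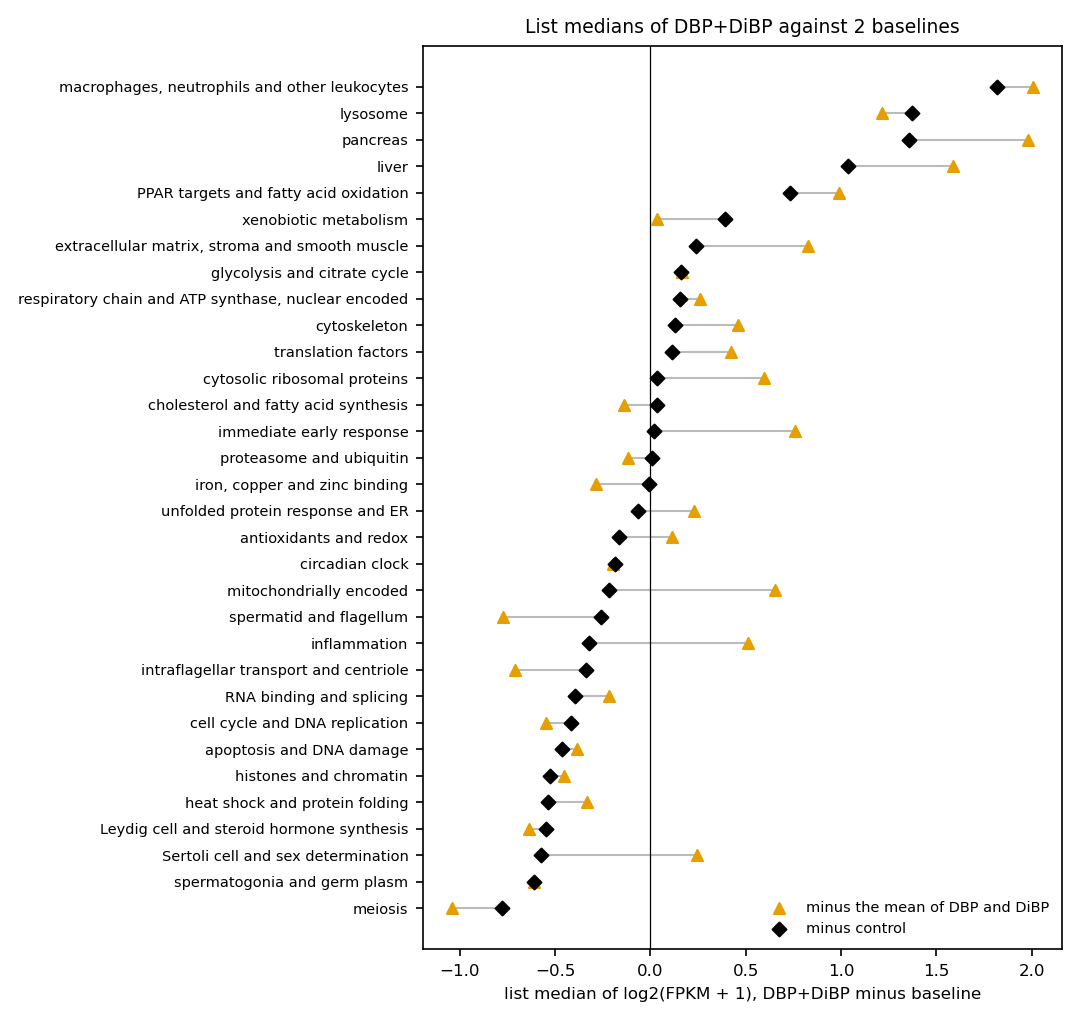
Median of log2(FPKM + 1) differences for each list with 10 or more genes, DBP+DiBP minus control (black diamonds) and DBP+DiBP minus the mean of DBP and DiBP (orange triangles), with lists down the page by their median against control. Leukocyte, lysosome, pancreas, liver and PPAR lists lie right of 0.5 on both baselines, meiosis, spermatogonia and Leydig lists lie left of -0.5 on both, and mitochondrially encoded genes, immediate early genes and inflammation move to the right on the second.

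The minimum of 5 FPKM in control left genes on each side of it. Just inside lay CBS, AFF4, slc25a40, DNMT3B and HVCN1, with 4.86, 7.22, 5.09, 2.52 and 8.85 FPKM in DBP+DiBP, and values of 5.00 to 5.01 in control. Just outside lay JMJD1C, tec, EXT2, pecr and s100v1, at 4.996 to 4.997 FPKM in control, with 4.995, 6.79, 6.51, 10.4 and 144 FPKM in DBP+DiBP. The calcium-binding s100v1 had 144 FPKM in DBP+DiBP, 5.74 in DBP, 5.47 in DiBP and 4.996 in control, and so missed the 9148 genes while showing the same pattern as the highest of them.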

How the data were processed

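Per the labels' protocols, snap-frozen testes gave RNA (RNeasy Mini Kit) for NEBNext Ultra libraries read in paired ends. The submitters' processing notes name HISAT2, HTSeq 0.6.1 and GRCz10. Which of them made the files is not given in the sources used here. The authors deposited 1 value per gene and library, taken as FPKM from the values alone. Fragment counts are unknown. Relative depth, read from the steps of low values, was 1.09 times that of control in DBP+DiBP, 1.05 in DBP and 1.10 in DiBP, and FPKM totals were 605447 in DBP+DiBP, 575737 in DBP, 547485 in DiBP and 604779 in control. Low values are the least precise, and no interval can be given.

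Differences of log2(FPKM + 1), which understate folds of weakly expressed genes, were computed in Python 3.11.15 with pandas 2.3.3 under a 2-fold rule with no test. The code for the counting was tested on simulated data with changes of set size, which does not measure the error of the counts. Symbols came from a table of gene names. Of the 9148 genes, 1146 share all values with another identifier and were left out of the rule for named genes. Capital symbols lack the letter of duplicated copies, so several genes can carry 1 symbol (GADD45A, EIF4G2, HSPA4 and RRM2, where 1 copy is given). The proteasome pattern also took PSMC3IP. The genes and the 39 lists were chosen with earlier results of these data known. Named genes were the 15 lowest and 15 highest differences, the 10 highest in control, up to 4 per list by size, 5 on each side of the minimum, and fixed testis and stress genes, of which fosab was not matched. Some genes that this rule takes are not reported here. The gene tfr1b and the SDHD copy were chosen after their values were seen. The PPARD copy at -0.93 was also named outside the rule. Both tfr1b and this PPARD copy are among the genes that share all values with another identifier. The alternatives were another pseudocount, 2 scalings, other minimums, merged identifiers and added assembled loci.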

Additional observations from a re-analysis of the deposited data

Results flagged for a closer look

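Signal also lay outside the 9148 genes. Of the 25918 Ensembl genes under 5 FPKM in control, 820 had at least 5 FPKM and were at least 2-fold higher in DBP+DiBP. They summed to 21346 FPKM in DBP+DiBP and 1492 in control, where 13 of them were listed at 0. These genes were picked for a low control value and a higher DBP+DiBP value, so the contrast of their sums follows from the choice. In the other direction, with no fold rule, 1005 of the 9148 genes (11%) were under 5 FPKM in DBP+DiBP.

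Assembled loci, transcribed regions with no Ensembl name, were outside the comparison as well. Of 1663 with at least 5 FPKM in control, 324 were at least 2-fold lower in DBP+DiBP (19.5%) and 81 higher (4.87%), with a median difference of -0.42. Of the 12881 under 5 FPKM in control, 343 had at least 5 FPKM and were at least 2-fold higher in DBP+DiBP. These 343 were likewise picked by their values in the libraries compared. These sets hold loci with no symbol and are given as counts.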

How the results depend on the processing

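The 604 lower genes became 377 under the median of ratios scaling, 300 of 3693 with a minimum of 20 FPKM in control, and 928 of 10811 with assembled loci. The 433 higher genes became 1059 of 16361 with a minimum of 1 in control, 131 with a minimum of 20, 786 of 9521 with a minimum of 5 in the mean of the 4 libraries, and 1852 of 29692 with no minimum. Under a minimum of 5 in both DBP and DiBP, 455 of 8712 genes were lower and 422 higher. The median of the ovary and oocyte list was -1.02 and turned to 0.025 with no minimum.

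The median of the genes lay between -0.34 and -0.01 over the alternatives. Of 39 lists 10 changed the sign of their median under at least 1 alternative and 3 under a scaling. The median of the Sertoli list was 0.08 with a minimum in the mean of the 4 libraries. Of the named genes past 2-fold, 14 fell short of it under the median of ratios scaling (among them ASZ1, DDX4, ESCO2, FASN, PSME3, RRM2, SNRPD1, SNRPF, SYCP3, ZAR1, ZAR1L, ciarta and org) and dnah9 did under equal totals. The cause was not tested.

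No paired analysis was possible because each group was 1 library and the number 2 in the titles has no stated meaning. Leaving out a library would leave no comparison. Depth limits weakly expressed genes most, and no value has a replicate error.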
